A study of Danio rerio with 8 samples.

Results

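The AP-1, ATF3 and CREM genes are a group of injury-responsive transcription factors of the bZIP class, proteins that pair through a leucine zipper and bind DNA through a basic stretch beside it. The group was defined by 10 symbols, namely atf3, jun, junba, junbb, jund, fosab, fosb, fosl1a, fosl2 and cremb. Probes were taken as members when the RefSeq accession printed in the array design led to one of these symbols. This gave 19 probes for 9 of the 10 genes, out of 43603 probes and 13144 genes with a symbol on the array. No probe was matched to fosb, which is not analysed here.

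The samples were whole right retinae of adult wild type zebrafish, males and females not told apart. In the crush group the right optic nerve had been crushed with forceps behind the eye and the retinae were taken at day 3, and in the control group the retinae came from intact fish with no operation. Each group had 4 pools of 4 fish, and every pool was hybridised to its own one-colour array. The injury is an axotomy of the retinal ganglion cells, and no sham operation of the control fish is described. All crush arrays lay on 1 slide and all control arrays on another, each slide with its own scan time, so that slide and crush cannot be told apart.

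AP-1 is not one protein but a set of dimers. Jun proteins pair with each other or with Fos proteins, whereas Fos proteins need a Jun partner, and the dimers bind the TPA response element. ATF3 and the CREB and CREM proteins belong to neighbouring branches of the same class and favour the cAMP response element, to which some Jun and ATF dimers also bind. In mammals c-Jun is phosphorylated by the JNK kinases, the DLK kinase carries the signal of a cut axon to that route, and Jun and Atf3 are widely used as markers of axotomised neurons. No sequences of the probes, promoters or proteins were used here.

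After optic nerve crush, part of the group passed the thresholds given below and part did not. Of the 9 genes measured, cremb, atf3, jun and fosl1a were over-expressed after crush, none was under-expressed, and junba, junbb, jund, fosab and fosl2 did not pass the test. Whole retina is a mixture, and fewer or more cells of a type and less or more RNA per cell cannot be told apart in it. A probe passed at a fold change of at least 1.5 and an adjusted p of at most 0.05 in limma, with Benjamini-Hochberg adjustment across all 43601 tested probes, and a gene was counted through any of its probes. Against these 4 of 9 genes, 3.03% of all genes with a symbol were over-expressed and 1.19% under-expressed by the same rule, and 2.13% were over-expressed when probes without a symbol were counted as genes by their accession. The members were chosen with earlier results of these data known, and cremb and atf3 are among the paper's top upregulated genes. The excess over these shares is therefore no test of the group. Over probes, 6 of 19 passed upwards and 0 downwards, against 1.89% and 0.862% of all probes. In 6 probes all crush pools lay above all control pools, against 7.51% of all probes. The median log2 fold change was 0.34 over the brightest probes of the 9 genes and 0.01 over all genes with a symbol. Where a gene had several probes, the brightest by mean signal stands for it where 1 value is given.

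**Figure D1:**
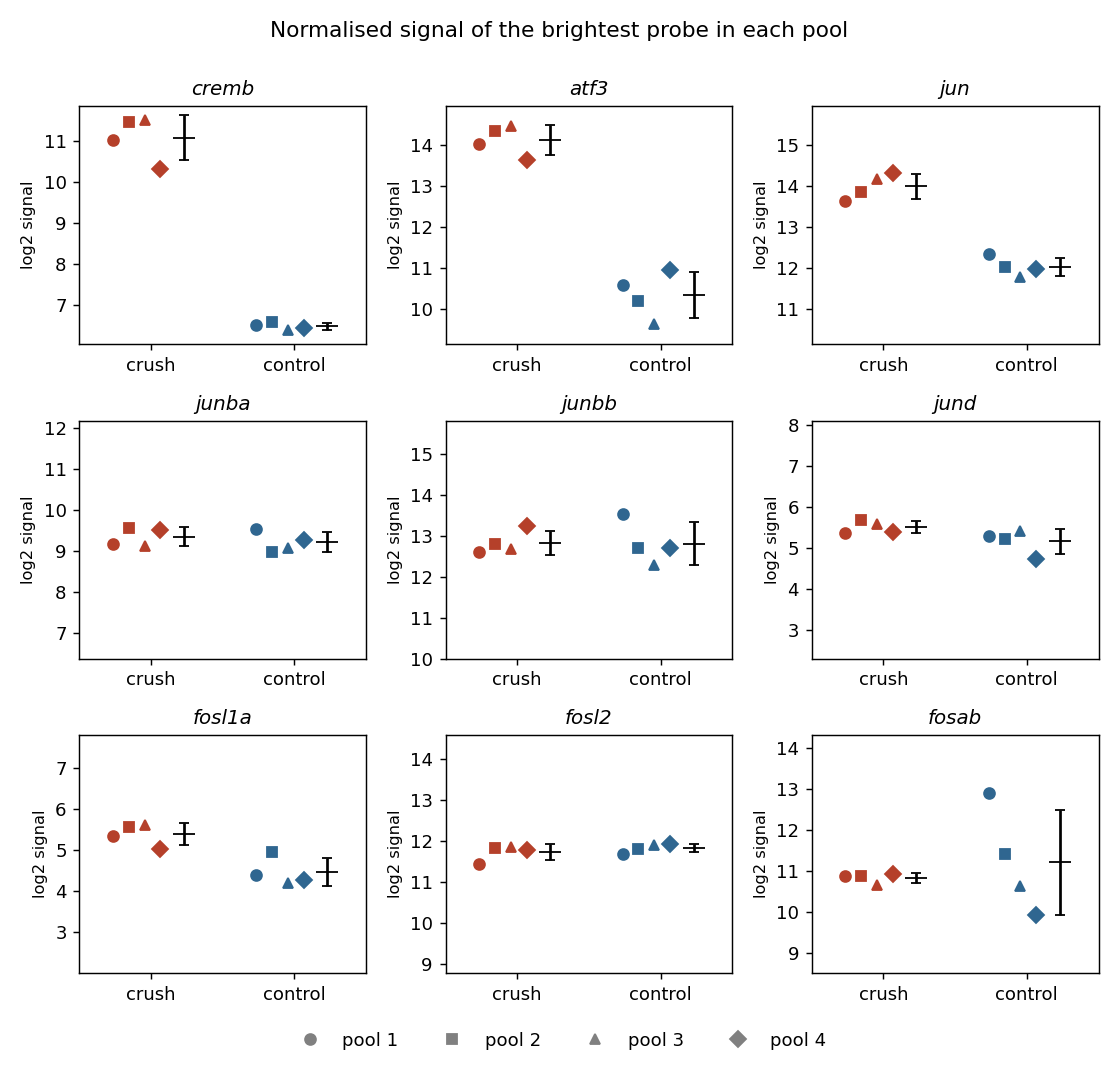
Normalised log2 signal of the brightest probe of each of the 9 genes in the 4 crush pools (red, left) and the 4 control pools (blue, right), with the pool number given by the marker and the mean ± SD in black. Each panel spans the same number of log2 units, and only cremb, atf3, jun and fosl1a have crush pools that all lie above all control pools.

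The largest change was that of cremb, one of the pair of zebrafish genes for the cAMP responsive element modulator, whose products either activate or repress genes with a cAMP response element depending on the isoform. Before any correction its spot read 2230, 2924.5, 3481 and 1378.5 intensity units on crush arrays 1 to 4, against 114, 134, 97 and 118.5 on control arrays 1 to 4. After normalisation the log2 signal was 11.03, 11.46, 11.51 and 10.32 in crush pools 1 to 4, against 6.52, 6.57, 6.38 and 6.43 in control pools 1 to 4. The control pools lay close together, the crush pools were spread more widely with pool 4 the lowest, and the groups were far apart. The log2 fold change of 4.61 (95% interval 4.04 to 5.17, adjusted p = 0.000323 from limma) corresponded to a 24.3-fold higher signal. Only 5 of the 43601 probes had a larger one. The size varied with the background correction. The log2 fold change was 4.38 in the authors' deposited log2 values. With a normexp offset of 50 it was 3.99, below the interval given here, and it passed in both. The single cremb probe does not tell activating from repressing isoforms.

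For atf3, a stress-induced factor that can act as a repressor alone and as a partner of Jun, the log2 signal was 14.03, 14.34, 14.46 and 13.63 in crush pools 1 to 4, against 10.58, 10.19, 9.62 and 10.94 in control pools 1 to 4. Crush pool 4 was again the lowest of its group, while among the controls pool 4 was the highest. The lowest crush pool still lay well above the highest control pool. Crush signal was 13.8-fold higher, with a log2 fold change of 3.78 (95% interval 3.11 to 4.45, adjusted p = 0.000896 from limma). Its uncorrected spot read 17326, 21228, 26925 and 13099 intensity units on crush arrays 1 to 4, against 1469, 1224.5, 626.5 and 1972.5 units on control arrays 1 to 4, so that the gene was read clearly in intact retina too.

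Among the Jun genes, jun alone was over-expressed. It codes for c-Jun, the AP-1 subunit that is acted on by JNK. Its brightest probe gave 13.64, 13.87, 14.18 and 14.31 in crush pools 1 to 4, against 12.34, 12.02, 11.79 and 11.97 in control pools 1 to 4. The log2 fold change was 1.97 (95% interval 1.56 to 2.38, adjusted p = 0.00129 from limma), a 3.91-fold difference. Both dimmer jun probes passed as well, with log2 fold changes of 1.78 (adjusted p = 0.00167) and 1.77 (adjusted p = 0.00346), so that the 3 probes differed from each other by less than the width of their intervals.

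The remaining Jun genes did not pass. In mammals JunB is a weaker activator than c-Jun and often opposes it, and zebrafish has a pair of genes for it. For junba the signal was 9.18, 9.58, 9.13 and 9.53 in crush pools 1 to 4, against 9.54, 8.99, 9.08 and 9.28 in control pools 1 to 4, and the groups overlapped throughout. The log2 fold change of 0.13 had a 95% interval from -0.24 to 0.5, within a 1.5-fold change either way (adjusted p = 0.7 from limma). For junbb the signal was 12.59, 12.79, 12.67 and 13.24 in crush pools, against 13.53, 12.70, 12.27 and 12.69 in control pools, the highest value of all being that of control pool 1. Its log2 fold change of 0.02 had a wider interval, -0.58 to 0.62 (adjusted p = 0.974).

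The jund gene, whose mammalian counterpart is expressed at a steady level in most tissues, was read by a dim probe, which the scanner software called well above background on 4 crush arrays and on 2 control arrays. Its signal was 5.38, 5.68, 5.59 and 5.39 in crush pools 1 to 4, against 5.29, 5.22, 5.41 and 4.74 in control pools 1 to 4. The ranges overlapped slightly at control pool 3. A log2 fold change of 0.34 (95% interval -0.02 to 0.71, adjusted p = 0.281 from limma) did not pass, and a rise of 1.5-fold lies inside this interval.

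Among the Fos genes, fosl1a passed and fosl2 and fosab did not. The gene fosl1a, for the Fos-related antigen Fra-1, had 5.35, 5.58, 5.61 and 5.04 in crush pools 1 to 4, against 4.41, 4.96, 4.21 and 4.29 in control pools 1 to 4. All crush pools lay above all control pools, although crush pool 4 exceeded control pool 2 by little. The log2 fold change was 0.92 (95% interval 0.47 to 1.37, adjusted p = 0.0443 from limma). The probe was dim, well above background on 3 crush arrays and 1 control array, so that the size of its change is poorly fixed. Over 17 alternative analyses the log2 fold change ran from 0.35 with a normexp offset of 50 to 1.16 with the scaled processed signal, and it was 0.6 in the deposited log2 values. It passed in 7 of these 17, the adjusted p running from 0.022 to 0.18, and in 2 of the 8 that left out 1 pool (without control pool 2 and without crush pool 4).

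A second zebrafish gene of this kind, fosl1b, is not one of the 10 but was identified through the transcript that the study pairs with this name. Its signal was 9.61, 9.95, 9.99 and 9 in crush pools 1 to 4, against 7.05, 6.33, 6.64 and 6.91 in control pools 1 to 4, with the groups well apart. Its log2 fold change was 2.91 (95% interval 2.35 to 3.47, adjusted p = 0.000944 from limma), a 7.49-fold difference, and it passed with any 1 pool left out.

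The fosl2 gene, for Fra-2, was read by 5 probes and none passed. Its brightest probe gave 11.43, 11.82, 11.86 and 11.78 in crush pools 1 to 4, against 11.69, 11.80, 11.90 and 11.92 in control pools 1 to 4, and the log2 fold change was -0.11 (95% interval -0.39 to 0.18, adjusted p = 0.681 from limma). The 5 probes had log2 fold changes from -0.23 to 0.13, and the 95% intervals of all 5 lay within a 1.5-fold change either way. One dimmer probe, at -0.23, had no overlap between its groups, with 7.75, 8, 7.94 and 7.81 in crush pools 1 to 4, against 8.10, 8.29, 8.03 and 8.01 in control pools 1 to 4. It did not pass (adjusted p = 0.292), and 6.38% of all probes had all crush pools below all control pools.

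The fosab gene codes for c-Fos, the subunit that is switched on within minutes of a stimulus in many cells and lost again soon after. Its brightest probe gave 10.86, 10.86, 10.64 and 10.92 in crush pools 1 to 4, against 12.89, 11.40, 10.62 and 9.91 in control pools 1 to 4. The crush pools were almost alike and lay inside the range of the control pools, of which pool 1 was the highest and pool 4 the lowest. The control pools spanned 2.98 on the log2 scale, a 7.89-fold range, and the crush pools spanned 0.28, a 1.22-fold range. A log2 fold change of -0.38 had an interval from -1.61 to 0.85 (adjusted p = 0.743 from limma), an interval that takes in a 1.5-fold change in either direction. Without control pool 1 the log2 fold change turned to 0.18 (adjusted p = 0.798).

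The 4 other fosab probes showed the same pools high and low. In all 5 probes control pool 1 was the highest of its group and control pool 4 the lowest, and the control range of 2.15 to 3.1 on the log2 scale was wider in each than the crush range of 0.20 to 0.49. A control SD at least as large as the 1.28 of the brightest fosab probe was found for 0.912% of all genes with a symbol. The log2 fold changes of the 5 probes lay between -0.38 and -0.24, none passed, and all 5 turned positive without control pool 1. Most lens genes, whose transcripts can enter a retina sample at dissection, were also highest in control pool 1. For cryaa, a lens crystallin, the log2 signal was 4.32, 3.86, 4.03 and 3.99 in crush pools 1 to 4, against 12.73, 9.21, 6.61 and 4.22 in control pools 1 to 4, the order that fosab had. Its crush pools lay near the lowest control pool, and those of fosab inside the control range. The lens genes cryba2a, cryba1b and crygn2 had this control order too. By contrast, mipb was highest in control pool 2, and lim2.1, cryba4 and crybb1 were lowest in control pool 3. All 9 lens genes had a lower mean in crush pools, with a median log2 fold change of -1.41, and none passed. Their summed signal was 2635 to 5136 in crush pools and 4331 to 20100 in control pools. Control pool 1 was also the highest for most microglia and macrophage markers, though not for spi1b and aif1l. For cd74a the log2 signal was 14.8, 14.19, 14.05 and 14.32 in control pools 1 to 4. The Müller glia genes glula, glulb, slc1a3a, aqp1a.1 and cahz were highest there too, and gfap, rlbp1a, apoeb and slc1a3b were not. The part of lens tissue or of these cells in the spread of fosab was not tested.

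**Figure D2:**
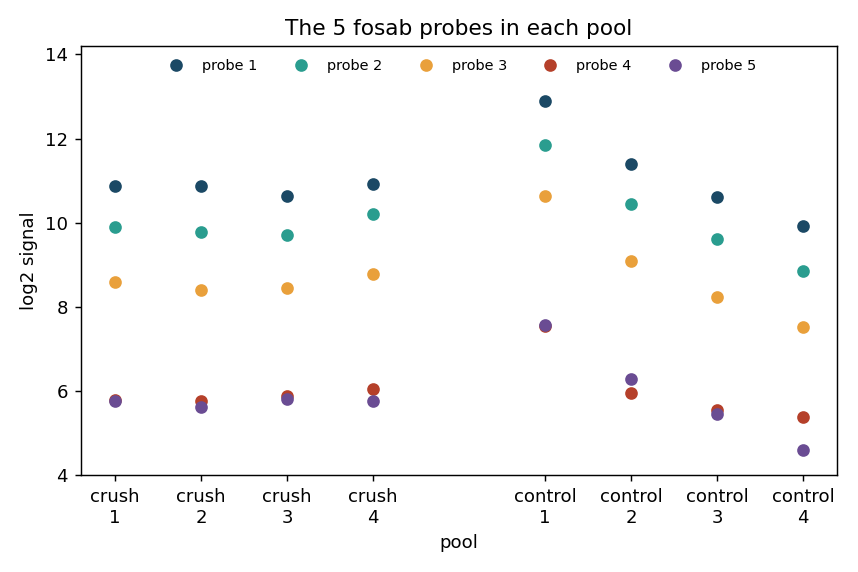
Normalised log2 signal of the 5 fosab probes, one colour each from the brightest (probe 1) to the dimmest, in crush pools 1 to 4 and control pools 1 to 4. Every probe is highest in control pool 1 and lowest in control pool 4, while the crush pools lie within 0.49 log2 units of each other.

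The log2 fold changes of the genes that rose were 4.61 for cremb, 3.78 for atf3, 1.97 for jun and 0.92 for fosl1a. The intervals of cremb and atf3 overlapped, and those of atf3 and jun, and of jun and fosl1a, did not. The 5 genes that did not pass lay between -0.38 and 0.34. With 4 against 4 pools, the exact two-sided permutation test over the 70 ways to relabel them gives its smallest p, 0.0286, to any probe whose groups do not overlap. It did so for the 4 genes that rose and equally for the fosl2 probe at -0.23. Among the brightest probes of all genes with a symbol, 10.4% had every crush pool above every control pool.

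**Figure D3:**
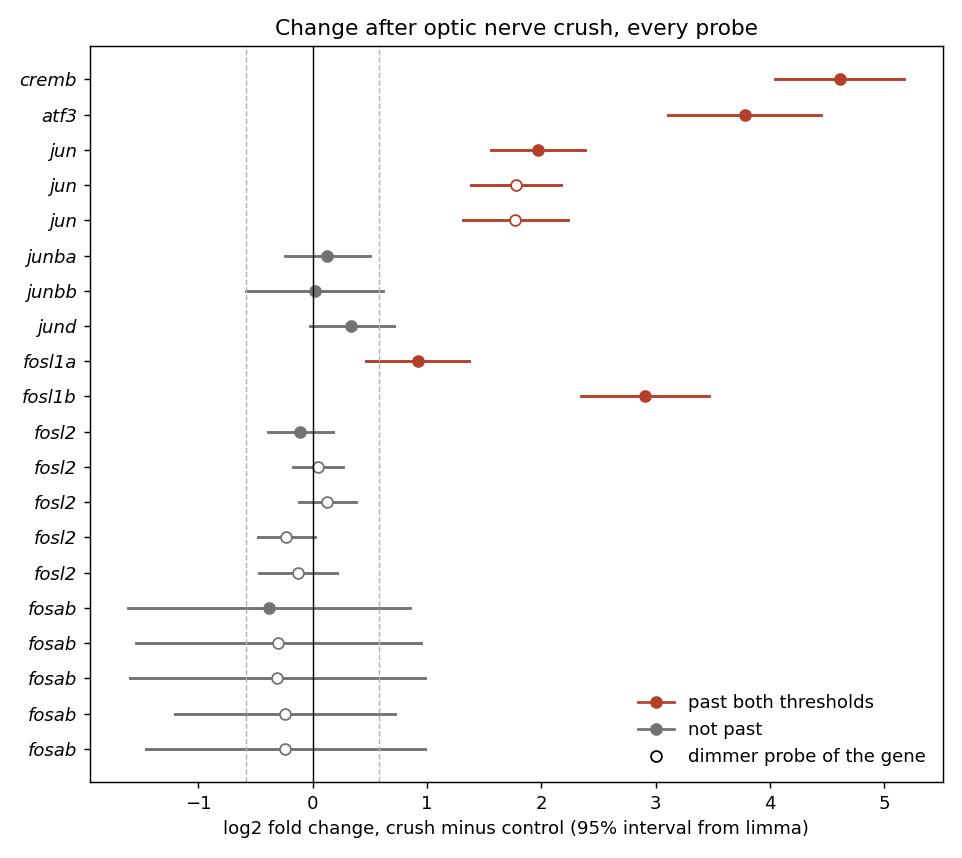
Log2 fold change, crush minus control, of all 19 probes and of the fosl1b probe, with 95% intervals from limma, in red where a probe passed both thresholds and in grey where it did not. Filled points mark the brightest probe of a gene and dashed lines a 1.5-fold change, and the fosab intervals are the widest.

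Whether related genes changed by unequal amounts was tested on the difference in log2 signal between their brightest probes within each array. With fosb unmatched, 4 pairs were compared by exact two-sided permutation tests and adjusted over the 4. The jun signal changed by 1.62 more than that of jund (exact permutation p = 0.0286, adjusted p = 0.0571), with differences of 8.19 to 8.92 in crush pools and 6.38 to 7.23 in control pools. The fosl1a signal changed by 1.03 more than that of fosl2 (permutation p = 0.0286, adjusted p = 0.0571), with no overlap either. Both p-values are the smallest the pools allow, and neither passed after adjustment. Adjusted over 4 pairs, 2 p-values at this floor cannot pass alone, so that their failure does not bear on these pairs. The jund and fosl1a probes were dim, so that the size of both differences is poorly fixed. The change of cremb exceeded that of atf3 by 0.82, with overlapping pools (permutation p = 0.0571, adjusted p = 0.0762). That of junba exceeded that of junbb by 0.11 (permutation p = 0.686, adjusted p = 0.686). Over 14 alternatives the cremb and atf3 difference ran from 0.27 with a normexp offset of 50 to 1.05 without control pool 3, and the fosl1a and fosl2 difference ran from 0.45 to 1.23.

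Within the crush group the genes that rose did not vary alike. In cremb, atf3, fosl1a and fosl1b pool 4 was the lowest, pool 1 the next, then pool 2, and pool 3 the highest. Crush pool 4 lay below the crush mean by 0.76 for cremb, 0.49 for atf3 and 0.35 for fosl1a on the log2 scale. For jun the same pool was the highest, at 0.31 above the mean. The order seen in atf3 was also that of 13.9% of the 324 genes whose brightest probe passed upwards and was measured in all pools, and of 5.72% of the 13046 genes with a symbol and a value in all pools. These are descriptions of 4 pools and were not tested. Crush pool 4 also had low red and green cone opsin signals, at 16.61, 16.27, 16.1 and 12.24 in crush pools 1 to 4 for opn1lw2, against 16.55, 10.38, 16.41 and 11.71 in control pools 1 to 4. Control pools 2 and 4 were low as well, and opn1mw1 had the same low pools. The other measured cone genes differed far less among the crush pools. In crush pools 1 to 4 opn1sw2 was at 16.72, 16.75, 16.88 and 16.61, and gnat2 at 17.68, 17.59, 17.76 and 17.01. Most microglia and macrophage markers were highest in crush pool 4, as jun was, and aif1l was highest in crush pool 3. For mpeg1.1 the log2 signal was 9.42, 9.75, 9.65 and 10.4 in crush pools 1 to 4, against 9.39, 9.29, 9.1 and 9.38 in control pools 1 to 4. The part of the cone opsins or of these markers in the pool order was not tested.

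**Figure D4:**
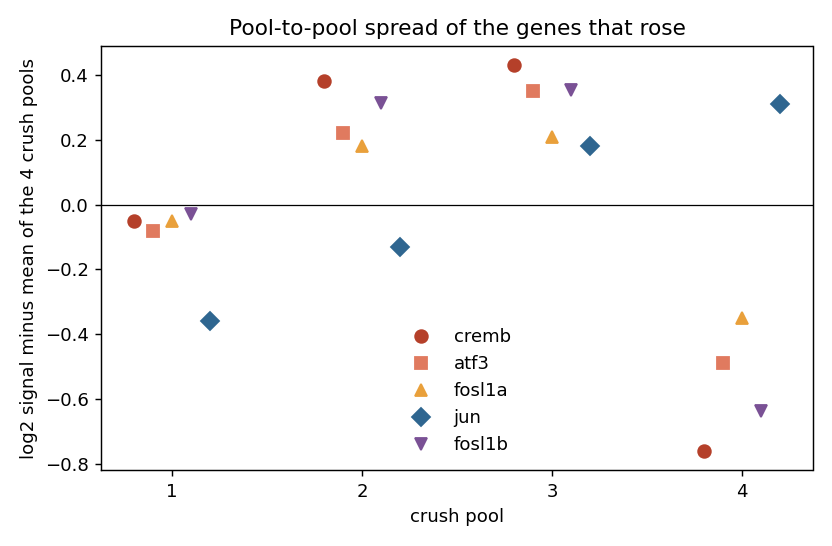
Log2 signal of the brightest probes of cremb, atf3, fosl1a, fosl1b and jun in each crush pool, as the difference from the mean of the 4 crush pools. In pool 4 jun lies 0.31 above its mean and cremb 0.76 below its own.

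The wider bZIP class was followed through 65 symbols of the ATF, CREB, Maf, C/EBP and related families, of which 46 had a probe. By the brightest probe 1 of the 46 rose, fosl1b, and none fell, against 2.48% and 0.883% of all genes with a symbol. The fosl1b probe entered through a transcript that the study lists for its rise, unlike the others, so that its call is no evidence about the class, and among the other 45 genes 0 passed. The median log2 fold change was -0.03. The largest rises among these others were those of atf5a, at 0.74 (adjusted p = 0.157 from limma), and batf3, at 0.71 (adjusted p = 0.167). The batf3 probe was well above background on 1 crush array and 0 control arrays. Other near neighbours of the group did not pass either. For jdp2b, a Jun dimerisation partner that acts as a repressor, the log2 fold change was -0.39 (adjusted p = 0.317), for creb1a, which binds the same element as CREM, it was 0.11 (adjusted p = 0.542), and for creb1b 0.42 (adjusted p = 0.429). For atf4b, a factor of the integrated stress response, it was 0.46 with no overlap between the groups (adjusted p = 0.0560). A dimmer atf4b probe, at 0.58 just under the fold threshold (adjusted p = 0.0422), passed without control pool 4 at 0.65 (adjusted p = 0.039) and with median scaling at 0.66. Without crush pool 1 nfil3-6 passed downwards through 1 of its 5 probes at -2.35 (adjusted p = 0.0352).

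Kinases and phosphatases of the routes that lead to Jun, Fos and ATF proteins were followed at the transcript level. Of 42 listed genes of the DLK, JNK, p38 and ERK routes 29 were measured and none passed in either direction, against 2.48% upwards and 0.883% downwards of all genes with a symbol, shares at which a list of this size may hold no call. The median log2 fold change was -0.04. At the mRNA level map3k12, the gene for DLK, was at -0.33 (adjusted p = 0.169). Its crush pools all lay below its control pools, as for 6.38% of all probes. The genes mapk8a and mapk8b, for JNK1, were at 0.05 (adjusted p = 0.855) and -0.07 (adjusted p = 0.759), and mapk10, for JNK3, was at -0.42 (adjusted p = 0.224). Phosphorylation was not measured. Without control pool 4, 3 genes of this list passed, mapk11 and dusp2 upwards and dusp4 downwards, at log2 fold changes of 0.67, 0.72 and -0.61.

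In the list for cAMP, protein kinase A and CREB co-activators, 30 of 51 genes were measured, 1 rose and 1 fell, against 2.48% and 0.883% of all genes with a symbol, and both code for the neuropeptide PACAP, which raises cAMP through its receptors. For adcyap1b the signal was 14.22, 14.68, 14.61 and 13.61 in crush pools 1 to 4, against 11.15, 11.54, 11.46 and 11.10 in control pools 1 to 4, higher by 2.97 on the log2 scale (SE 0.24, adjusted p = 0.000896 in limma), and all 4 of its probes passed. Crush pool 4 was the lowest of its group, as it was for cremb. The same held for 37.3% of the genes with a value in all pools whose brightest probe passed upwards. Over all genes with a symbol and a value in all pools the share was 29.5%. The paralogue adcyap1a moved the other way, with 7.05, 6.79, 7.06 and 6.68 in crush pools 1 to 4, against 7.88, 8.25, 8.08 and 7.43 in control pools 1 to 4, a log2 fold change of -1.02 (SE 0.19, adjusted p = 0.0271). That fall passed in 1 of the 8 analyses with a pool left out, without control pool 4. None of the measured genes for adenylate cyclases or protein kinase A subunits passed. The only CREB co-activator gene measured, crtc1a, did not pass either, at -0.36 (adjusted p = 0.17 from limma). The median of the list was -0.15. One adenylate cyclase gene, adcy1b, passed downwards with median scaling (-0.61) and with the scaled processed signal (-0.82).

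A further list held 47 genes of other families that are commonly followed beside Fos and Jun as early responses to a stimulus. Of the 39 measured, 3 rose and 1 fell, against 2.48% and 0.883% of all genes with a symbol, and the median log2 fold change was -0.13. The genes that rose were klf6a, a Krüppel-like factor (log2 fold change 2.24, adjusted p = 0.000323 from limma), mycb, one of the zebrafish Myc genes (1.34, adjusted p = 0.00815), and hbegfa, a ligand of the EGF receptor (1.35, adjusted p = 0.0332). The klf6a and mycb calls held with any 1 pool left out, and that of hbegfa in 1 of 8, without crush pool 1. The gene that fell was srfb, for a serum response factor, at -0.70 (adjusted p = 0.0123), through a probe well above background on 1 crush array and 4 control arrays. It passed in 12 of 17 alternatives, with log2 fold changes from -1.47 to -0.29, and was lost with normexp offsets of 16 and 50, in the deposited log2 values, with the replicate number as a block and without crush pool 3. The classical early genes did not pass: egr1 was at -0.90 (adjusted p = 0.120), npas4a at -0.82 (adjusted p = 0.510), nr4a1 at -0.70 (adjusted p = 0.501) and ier2a at 0.10 (adjusted p = 0.830). Without control pool 4 egr1 passed downwards, at -1.19 (adjusted p = 0.0173), and scaling each array to its median gave 7 called genes, with npas4a and egr1 added downwards and hbegfb upwards. That npas4a call came from a dimmer probe, well above background on 0 crush arrays and 1 control array. The call of hbegfb was also made with normexp offsets of 16 and 50, in the deposited log2 values and without crush pool 1. It came as well with an intensity trend in eBayes and with dim probes left out. Upward calls were also made for socs3a without control pool 2 and for ccn1 with the replicate number as a block. A downward call was made for srfa with the scaled processed signal.

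**Figure D5:**
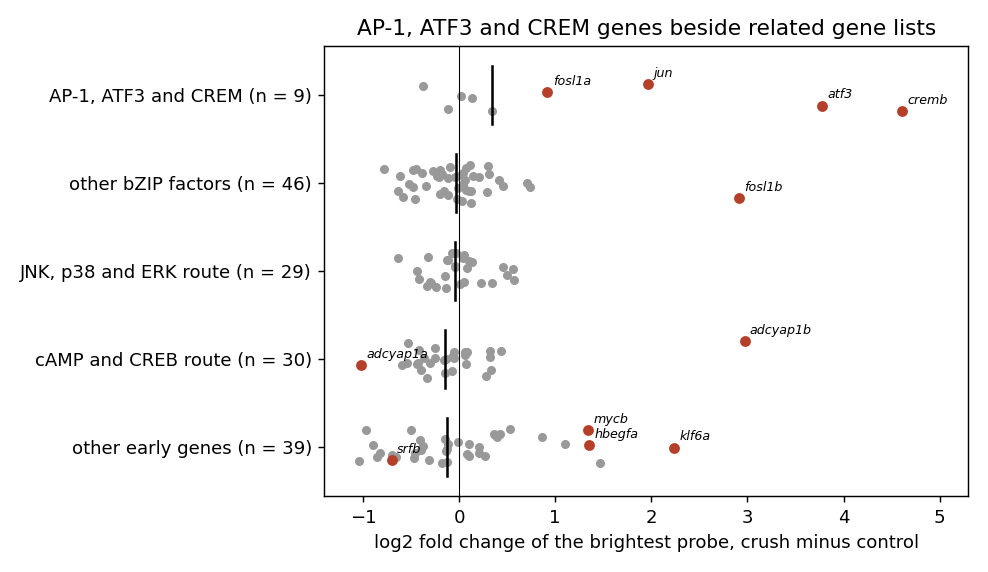
Log2 fold change of the brightest probe, crush minus control, for the 9 genes of the group and for the measured genes of 4 related lists, 1 point per gene, with red points for genes past both thresholds and a black bar at the median of each list. The group has 4 red points of 9, the other bZIP factors 1 of 46, the kinase list 0 of 29, the cAMP list 2 of 30 and the other early genes 4 of 39.

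All 6 measured rod genes and all 8 measured cone genes were above background on at least 1 array and none passed. The same held for the 9 lens genes and the 5 measured red blood cell genes, so that it does not identify the tissue. The rod genes saga and pde6a had every crush pool below every control pool, as did 6.38% of all probes. For saga the log2 fold change was -0.53 (adjusted p = 0.032 from limma), under the fold threshold only. For pde6a it was -0.48 (adjusted p = 0.0565). Of 6 measured retinal ganglion cell markers of 8 listed, 4 fell, against 0.883% of all genes with a symbol. The log2 fold changes were -2.57 for isl2b, -1.9 for pou4f2, -1.47 for rbpms2a and -1.16 for rbpms2b. Their adjusted p ran from 0.00167 to 0.0147 in limma. All 4 are among the paper's top downregulated genes from these arrays, so that their fall is no separate evidence. The other measured markers, elavl3 at 0.26 and sncga at -0.28, did not pass. The summed signal of that list was 40840 to 49210 in crush pools and 76900 to 104900 in control pools. The marker thy1, listed but not matched to a probe, is among the top upregulated genes of the paper. Lower sums in every crush pool were not particular to ganglion cells. For 7 amacrine and horizontal cell genes the sums were 61320 to 77230 in crush pools and 82630 to 100900 in control pools. For 7 bipolar cell genes they were 33520 to 43640 and 45020 to 51450. None of these genes passed. The sums of 9 Müller glia genes overlapped, at 253700 to 295600 and 254400 to 330500. Leukocytes also express AP-1 and ATF3. Of 8 measured microglia and macrophage markers of 14 listed none passed, and 6 had a higher and 2 a lower mean in crush pools. Log2 fold changes ran from -0.23 for csf1ra to 0.59 for spi1b (adjusted p = 0.454 and 0.155 from limma). For spi1b and mpeg1.1 every crush pool lay above every control pool, as for 10.4% of all genes with a symbol. The sums were 33670 to 50510 in crush pools and 31230 to 47060 in control pools. The brightest gene in them was cd74a, at -0.17. Of 7 genes listed for neutrophils 6 were measured. Of these, 2 rose, against 2.48% of all genes with a symbol. They were mmp9, a matrix metalloproteinase that other cells also make, and cpa5, likewise not specific to neutrophils. Both are among the paper's top upregulated genes. Their log2 fold changes were 3.51 and 3.92 (adjusted p = 0.00141 and 0.000896 from limma). The others, mpx, lyz, il1b and npsn, were at -0.08, 0.02, -0.05 and -0.21 and did not pass. The sums were 8298 to 11680 in crush pools and 769 to 2072 in control pools, and most of the crush sum was mmp9. Their part in the changes of cremb, atf3, jun and fosl1a was not tested.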

How the data were processed

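RNA of 8 retinal pools was hybridised to Agilent one-colour arrays. The deposited scanner files hold the median intensity of each spot and of its local background, neither corrected nor scaled between arrays, and a processed signal, an intensity that the software had background-subtracted and detrended. The authors also deposited log2 values, made with a normal-exponential background correction and quantile normalisation, and these lay within 0.0118 of values recomputed with an offset of 16 and control spots included.

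Here limma's normexp (offset 0) corrected the background. After removal of control spots and of spots with an outlier flag, quantile normalisation followed. A probe needed 2 or more values per group to enter lmFit and eBayes (limma 3.58.1, R 4.3.3), without covariates, two-sided, with the thresholds of the paper's methods. The steps were tested on simulated data. Symbols came from a RefSeq gene table of assembly GRCz12tu by accession, for 25599 of 43603 probes, fosl1b by the transcript the paper names.

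Between 76.6% and 77.8% of spots were well above background on the crush arrays and between 72.5% and 84% on the control arrays, none was saturated, and the number of arrays limits the precision. Correlations between arrays (Pearson's r across probes) were 0.979 to 0.991 within groups and 0.972 to 0.985 between them. Each pool held different fish.

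The genes named are all members, fosl1b, and in each related list the genes past the thresholds by their brightest probe. Other genes of the lists were chosen after their values were seen. They are atf5a, batf3, jdp2b, creb1a, creb1b, atf4b, nfil3-6, adcy1b, the kinases, phosphatases and the early and cell type genes that did not pass. The members, lists and pairs were chosen with earlier results of these data known.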

Additional observations from a re-analysis of the deposited data

How the results depend on the processing

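With any of 19 alternative settings, 3 or 4 of the 9 genes passed, and the count of 3 was always through the loss of fosl1a. The calls of cremb, atf3 and jun held throughout, with log2 fold changes of 3.99 to 4.86, 3.53 to 4 and 1.84 to 2.09. Over all probes, 1201 passed. Median scaling gave 2380, a log2 fold change of at least 1.5 gave 227, and leaving out 1 pool gave 477 to 1530 (776, 695 and 527 without control pool 1, 2 or 3, and 477, 485 and 791 without crush pool 2, 3 or 4). Upward calls were 68.7% of these probes, against 49.4% with median scaling and 44.7% with the 75th percentile of the processed signal, which also moved the median of all probes from -0.01 to -0.12. Direction turned only in values that did not pass: fosl2 at 0.01 with median scaling, junbb at -0.01, -0.15, -0.01 and -0.11 without control pool 2, 3 or 4 or crush pool 4 (up to 0.27 without control pool 1), the 5 fosab probes at 0.18, 0.26, 0.28, 0.24 and 0.29 without control pool 1 (-0.82, -0.74, -0.76, -0.48 and -0.7 without control pool 4), and junba against junbb at -0.03 without control pool 1 (-0.03 to 0.24 over all pools left out). The cause was not tested. Same-numbered pools did not deviate together (r of 0.00984, -0.117, 0.0172 and 0.181), 1 of 4 crush pools correlated best with its own number, and with the replicate number as a block 482 probes and 3 of the 9 genes passed. The dim-probe filter left fosl1a untested.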

Other observations

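Control pool 1 was the highest control pool for 19 of the 39 measured other early genes (48.7%). It was also the highest for 21 of the 45 other bZIP genes with a value in all pools, fosl1b included (46.7%). For the AP-1, ATF3 and CREM genes this held in 4 of 9 (44.4%). The share was 20.7% of the kinase list, 23.3% of the cAMP list and 25.5% of all genes with a symbol. The median control SD of the other early genes was 0.383 on the log2 scale, against 0.214 over all genes, and 0 of the 39 had a control SD as large as that of fosab. For egr4 the log2 signal was 10.03, 9.42, 9.16 and 9.38 in crush pools 1 to 4, against 11.90, 10.21, 10.26 and 9.51 in control pools 1 to 4. For egr1 it was 5.23, 5.03, 5.28 and 5.15 in crush pools, against 6.74, 6.09, 6.21 and 5.25 in control pools. Both genes code for zinc finger factors of the early response, and both were highest in control pool 1 and lowest in control pool 4, as fosab was. For ier2a the control pools spanned 0.99 and the crush pools 0.27 on the log2 scale. The phosphatase genes dusp1 and dusp5 had the same highest and lowest control pool, with control ranges of 2 and 2.29 and crush ranges of 1.12 and 1.35. In npas4a, a neuronal activity factor, the crush pools spanned almost as much as the control pools, 2.36 against 2.52.

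The genes given here were picked with their values known, and no test was made of the spread.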
